A study of Mus musculus with 17 samples.

Results

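RNA levels of induced pluripotent stem cells (iPSC) that lack Nanog were set against those of mouse embryonic fibroblasts (MEF), the cell type from which such cells are made. The comparison takes in 6 of the series' 17 libraries, chosen by their labels: 4 libraries of Nanog-null iPSC, 2 from clone G2 and 2 from clone G5, and 2 libraries of WT MEF. The clones carry the genotype Nanog -/- on a 129/B6 (v6.5) background and were at passage 6. Their starting cells were Nanog -/- MEF, dissected from E12.5 chimeric embryos and sorted for constitutive GFP, and were transduced with retroviruses for mouse Oct4, Sox2 and Klf4, to which c-Myc could be added. On day 20 colonies were taken up, moved onto feeder cells and kept in 2i and LIF, a medium with inhibitors of the GSK3 and MEK kinases and the cytokine LIF. WT MEF are wild type, of strain c57/b6, at passage 2, and were grown in 10% FBS. The Nanog -/- MEF themselves were not analysed here. For reference levels, 2 libraries of WT ESC coded AC (129/B6 (v6.5)), 2 of WT ESC coded JI (c57/b6) and 2 of Nanog null ESC (Nanog -/-, 129/B6 (v6.5), passage 6) are quoted. The other libraries, WT iPSC and WT piPSC, enter the tests only. Of WT iPSC, 1 library is coded AC (129/B6 (v6.5), passage 6) and 2 are coded JI (c57/b6). The 2 WT piPSC libraries are coded AC (129/B6 (v6.5), passage 6). 

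Several features of the groups limit what their difference measures. Both clones are set against the same WT MEF libraries. Each iPSC line is 1 clone. Feeder cells are fibroblasts, so fibroblast RNA of feeders and of iPSC cannot be told apart. The clones lie in the libraries coded AC and WT MEF in those coded JI, so that no value within 1 code could be had, and genotype, strain, culture, code and reprogramming cannot be told apart. The design text calls the libraries of a group biological replicates, but no label ties them to separate cultures, so the spread between them may be technical. The p-values rest on a spread shared by all groups of a fit. In the fit with a term for the codes, given below, it also holds differences of WT ESC and WT iPSC between codes that the term does not absorb. In bulk samples, fewer cells of a type and less RNA per cell cannot be told apart.

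Reprogramming turns a fibroblast, a mesenchymal cell embedded in matrix that it secretes, into a cell that grows as an epithelial colony and can form all tissues of the embryo. The retroviral factors act first on the fibroblast programme and its surface proteins. Epithelial adhesion genes are switched on next, and the cell's own pluripotency network, in which Nanog works with Oct4 (Pou5f1), Sox2 and Esrrb, comes last and then sustains itself. Nanog is a homeodomain transcription factor that stabilises this network in mouse embryonic stem cells (ESC).

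The labels were checked first. WT MEF had no fragment of Pou5f1 and 1239 ± 12.4 FPKM of Col1a1 (SD, n = 2), and the clones had the pluripotency genes given below. The targeted gene was low but not at 0 in the clones. Nanog measured 27.2 and 27.8 FPKM in clone G2, 40.0 and 43.0 FPKM in clone G5 and 0.242 and 0.0539 FPKM in WT MEF. The unit is FPKM, fragments scaled by transcript length and library size, and WT ESC of the AC libraries averaged 571 ± 3.93 FPKM (SD, n = 2). Whether the remaining fragments come from a part of the locus that the deletion leaves was not tested. Depth was 32.5 M and 17.7 M fragments in clone G2, 24.9 M and 23.1 M in clone G5 and 8.73 M and 19.8 M in WT MEF.

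Large changes were taken from 2 fits of edgeR's quasi-likelihood test. The planned fit used all 17 libraries with a term for the AC and JI codes, and the other used the 6 libraries alone. A large change is a Benjamini-Hochberg adjusted p under 0.05 and a fitted fold of at least 4 in the same direction in both clones. In the fit with the code term, 3247 genes were higher (18.6% of 17446 tested) and 2069 were lower (11.9%) in both clones. In the 6 libraries alone, 2546 were higher (15.9% of 16029 tested) and 1392 were lower (8.68%). The term is estimated from WT ESC and WT iPSC, of which 1 WT iPSC library is coded AC. The codes also differ in strain. The term did not carry over to MEF for every gene. In all, 4 genes were higher in the fit with the term and lower in the 6 libraries, and 9 the other way round. Ribosomal protein genes took 5.32 to 5.79% of fragments in the clones and 3.65 to 3.66% in WT MEF, but 19.4 to 26.3% in the JI WT ESC and WT iPSC. The words gained and lost are therefore kept for genes with a large change in both fits. There were 1798 gained genes (11.2% of the genes tested in the 6 libraries) and 860 lost genes (5.37%). These shares over all genes are the background for every count of list members gained or lost below.

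**Figure D1:**
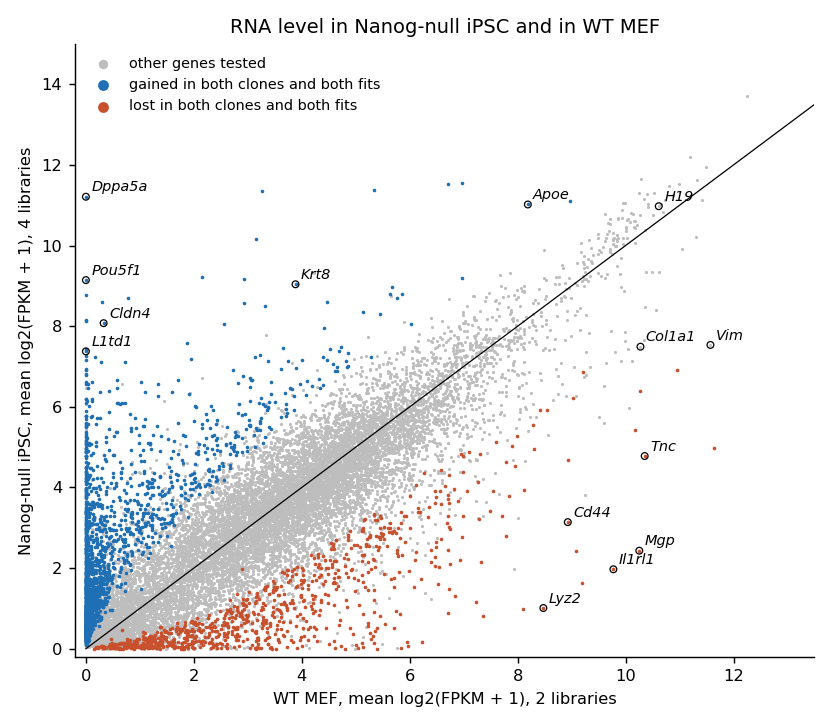
Mean log2(FPKM + 1) of every gene tested in both fits, Nanog-null iPSC (4 libraries) on the vertical axis and WT MEF (2 libraries) on the horizontal axis, with the 1798 gained genes in blue and the 860 lost genes in red. Dppa5a and Pou5f1 lie on the vertical axis at 0 in WT MEF, and Mgp and Il1rl1 lie far below the diagonal line of equal level.

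A gain asks for a lower level in WT MEF and a loss for a lower level in the clones, so the levels below only describe these sets. Of the 1798, 507 had no fragment in either WT MEF library, and their median level over all 1798 was 3.26 FPKM in the clones and 0.0822 FPKM in WT MEF. A mean of at least 100 FPKM was reached by 75 gained genes in the clones and by 5 of them in WT MEF. Of the 860 lost genes, 11 had no fragment in any of the 4 clone libraries, and their median over all 860 was 0.497 FPKM in the clones and 7.34 FPKM in WT MEF. The 2 counts of genes without fragments cannot be compared, because the number and depth of the libraries differ. At 100 FPKM or more there were 2 lost genes in the clones and 60 in WT MEF.

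The levels the gained genes reached were read against WT ESC of the AC libraries, which share the code and the strain label of the clones. Of the 519 gained genes with at least 10 FPKM in the clones, 279 lay between 50% and 200% of the WT ESC level, 52 below and 188 above, with a median of 129.7%. Among all 1798 gained genes, edgeR on the 11 AC libraries called 760 higher and 523 lower in both clones than in WT ESC at an adjusted p under 0.05, where 31.0% and 30.3% of the 17706 genes tested were called. The genes were chosen on the same clone libraries, so nothing is read from these shares. The same 31.0% higher and 30.3% lower are the background for the counts of list members against WT ESC below.

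**Figure D2:**
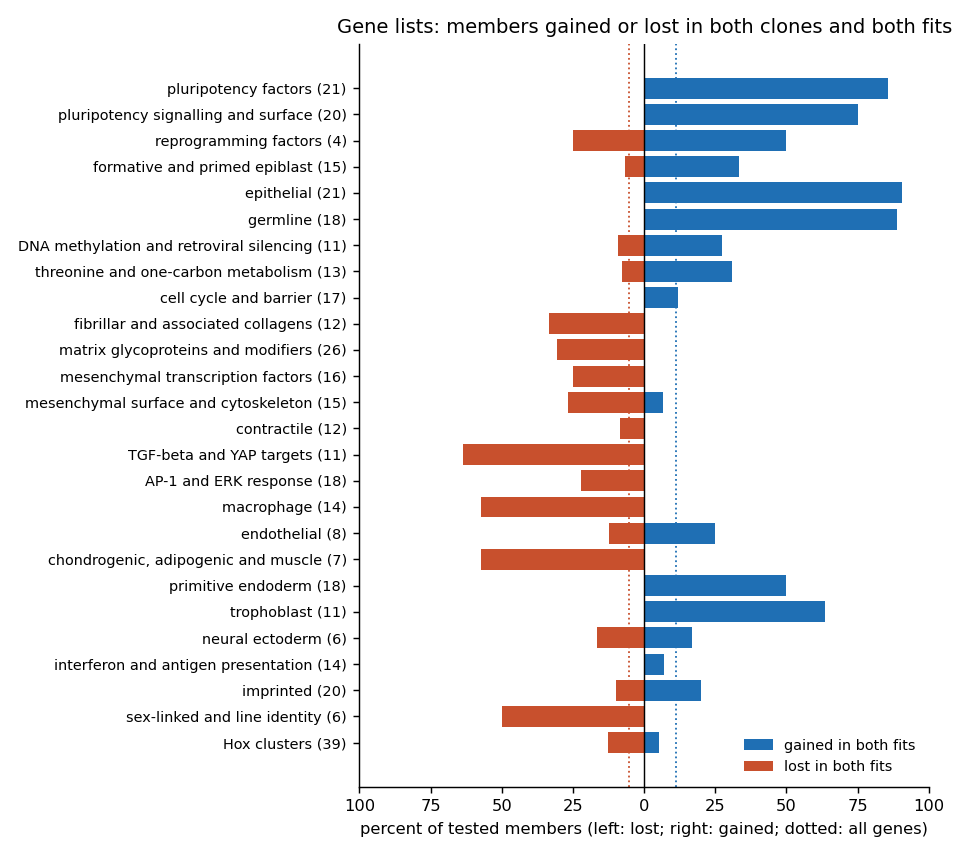
Percent of tested members of each gene list that were gained (blue, to the right) or lost (red, to the left) in both clones and both fits, with the number tested in parentheses and the shares over all genes as dotted lines. Epithelial, germline and pluripotency lists reach furthest to the right, and the TGF-beta and YAP target, macrophage and chondrogenic, adipogenic and muscle lists furthest to the left.

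The promoters of the highest-ranked changed genes with a RefSeq window are shown because their genes differ most between the cell states. Among the 12 largest gains and the 12 largest losses, 5 and 8 had a window in the RefSeq table (GRCm38.p6). For the leading pair on each side, the 250 bases before the annotated start are printed on the gene's strand, at chr17:35505782-35506031 (plus) for Pou5f1, chr5:134946935-134947184 (minus) for Cldn4, chr1:40429320-40429569 (plus) for Il1rl1 and chr10:117282273-117282522 (minus) for Lyz2. Capitals mark matches on either strand to any of 3 motifs. The motif of AP-1 factors was searched for as TGANTCA. The octamer motif of Oct factors was searched for as ATGCAAAT. The TATA box, which lies close to many start sites, was searched for as TATAAA.
Pou5f1: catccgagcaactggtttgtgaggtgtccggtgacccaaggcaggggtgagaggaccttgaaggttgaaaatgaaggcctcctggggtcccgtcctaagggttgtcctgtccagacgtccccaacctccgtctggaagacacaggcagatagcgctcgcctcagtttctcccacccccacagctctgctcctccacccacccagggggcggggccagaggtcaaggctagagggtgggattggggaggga
Cldn4: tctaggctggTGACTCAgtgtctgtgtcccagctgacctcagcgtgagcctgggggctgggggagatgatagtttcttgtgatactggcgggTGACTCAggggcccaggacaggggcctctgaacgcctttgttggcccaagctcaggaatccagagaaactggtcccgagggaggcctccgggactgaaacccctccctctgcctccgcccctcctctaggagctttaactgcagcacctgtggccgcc
Il1rl1: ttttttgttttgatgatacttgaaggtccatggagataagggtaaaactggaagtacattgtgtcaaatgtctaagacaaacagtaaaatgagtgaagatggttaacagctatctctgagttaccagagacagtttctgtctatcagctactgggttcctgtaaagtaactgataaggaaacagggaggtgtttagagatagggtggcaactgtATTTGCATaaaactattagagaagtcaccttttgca
Lyz2: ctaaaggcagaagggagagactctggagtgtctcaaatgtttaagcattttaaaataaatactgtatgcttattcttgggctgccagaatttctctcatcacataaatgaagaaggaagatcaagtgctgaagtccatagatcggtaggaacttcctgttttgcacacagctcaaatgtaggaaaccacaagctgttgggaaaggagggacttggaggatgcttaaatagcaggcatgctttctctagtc

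The gained Cldn4 window holds TGANTCA at 2 places, the lost Il1rl1 window holds the octamer on the other strand, and none of the 3 motifs is in the Pou5f1 and Lyz2 windows. Over all windows of gained genes, 5.42% held TGANTCA, 7.53% TATAAA and 2.17% ATGCAAAT. Windows of lost genes held them in 8.17%, 9.24% and 2.68%, and those of all genes tested in both fits in 4.92%, 6.92% and 1.34%. The median number of CpG pairs was 8 in gained windows, 9 in lost windows and 14 over the genes tested in both fits. These are counts of letters, not of bound sites.

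Most pluripotency factors were gained in both clones. Of 21 tested members, 18 were gained and none was lost, with a median difference of 4.93 in mean log2(FPKM + 1) against 0.0494 over all genes tested. Pou5f1, which encodes Oct4, measured 553 and 507 FPKM in clone G2, 591 and 613 FPKM in clone G5 and 0 FPKM in both WT MEF libraries. With 3 fragments as the floor in the shallower WT MEF library, it was at least 1886-fold higher in the clones. The annotated gene also collects fragments of the Oct4 retrovirus, so endogenous and viral RNA were not separated. Zfp42 (Rex1), a marker of the naive state, measured 114 and 112 FPKM in clone G2, 121 and 135 FPKM in clone G5 and 0 FPKM in both WT MEF libraries. L1td1, an RNA-binding protein of pluripotent cells, measured 140.3 and 136 FPKM in clone G2, 181 and 214 FPKM in clone G5 and 0 FPKM in both WT MEF libraries. No clone library overlapped a WT MEF library for any of the 3.

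The factors were also compared with WT ESC of the AC libraries. Tfcp2l1, which acts downstream of LIF, measured 71.1 and 73.0 FPKM in clone G2, 71.0 and 73.8 FPKM in clone G5 and 0.0972 and 0.054 FPKM in WT MEF, and WT ESC averaged 75.6 ± 4.60 FPKM (SD, n = 2), a difference that edgeR did not call in either clone. Nr0b1 (Dax1), a co-regulator of Oct4, averaged 70.0 ± 3.70 FPKM in the clones (SD, n = 4) and 44.3 ± 1.46 FPKM in WT ESC (SD, n = 2). Esrrb was listed at 64.5 to 83.5 FPKM in the clones against 0 and 0.0938 FPKM in WT MEF, but it was among 19 genes that the authors' status column marks as not computed normally in some library, so it was not tested. In the AC libraries, 12 of the 21 factors were lower in both clones than in WT ESC and 2, Nr0b1 and Lin28a, were higher. Dppa3 (Stella) averaged 52.5 ± 8.25 FPKM in the clones (SD, n = 4) and 126 ± 10.0 FPKM in WT ESC (SD, n = 2). Klf2, Klf5 and Tbx3 are the 3 tested members that were not gained, and each was already present in fibroblasts. Klf2 measured 55.6 to 72.0 FPKM in the clones against 25.1 and 26.6 FPKM in WT MEF. Klf5 measured 30.7 to 42.9 FPKM in the clones against 14.4 and 14.5 FPKM in WT MEF. Against these levels, the fit with the code term gave Klf5 a change toward lower RNA, without a call. Without WT ESC replicate 4 it was called lower in that fit, at a mean log2 change of -2.44. Tbx3 measured 41.0 to 53.6 FPKM in the clones against 3.75 and 5.09 FPKM in WT MEF and was higher in the 6 libraries only.

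The factors that the retroviruses carry differed in direction. As for Pou5f1, endogenous and viral RNA of Sox2, Klf4 and Myc were not separated. Sox2 was gained, at 41.5 and 41.8 FPKM in clone G2, 38.5 and 39.8 FPKM in clone G5 and 0.338 and 0.601 FPKM in WT MEF, with means 86.1-fold apart. Klf4 was already present in WT MEF and measured 26.5 and 24.9 FPKM in clone G2, 20.7 and 20.5 FPKM in clone G5 and 35.5 and 35.1 FPKM in WT MEF. It was lower in the fit with the code term (log2 change -2.73 in G2 and -3.06 in G5) and without a call in the 6 libraries, where the changes were -0.38 and -0.71. Myc was lost, at 9.20 and 11.002 FPKM in clone G2, 6.95 and 8.22 FPKM in clone G5 and 124 and 127 FPKM in WT MEF, 14.2-fold lower in the clones. WT ESC held 3.52 ± 0.971 FPKM of Myc (SD, n = 2), and edgeR called both clones higher than WT ESC.

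**Figure D3:**
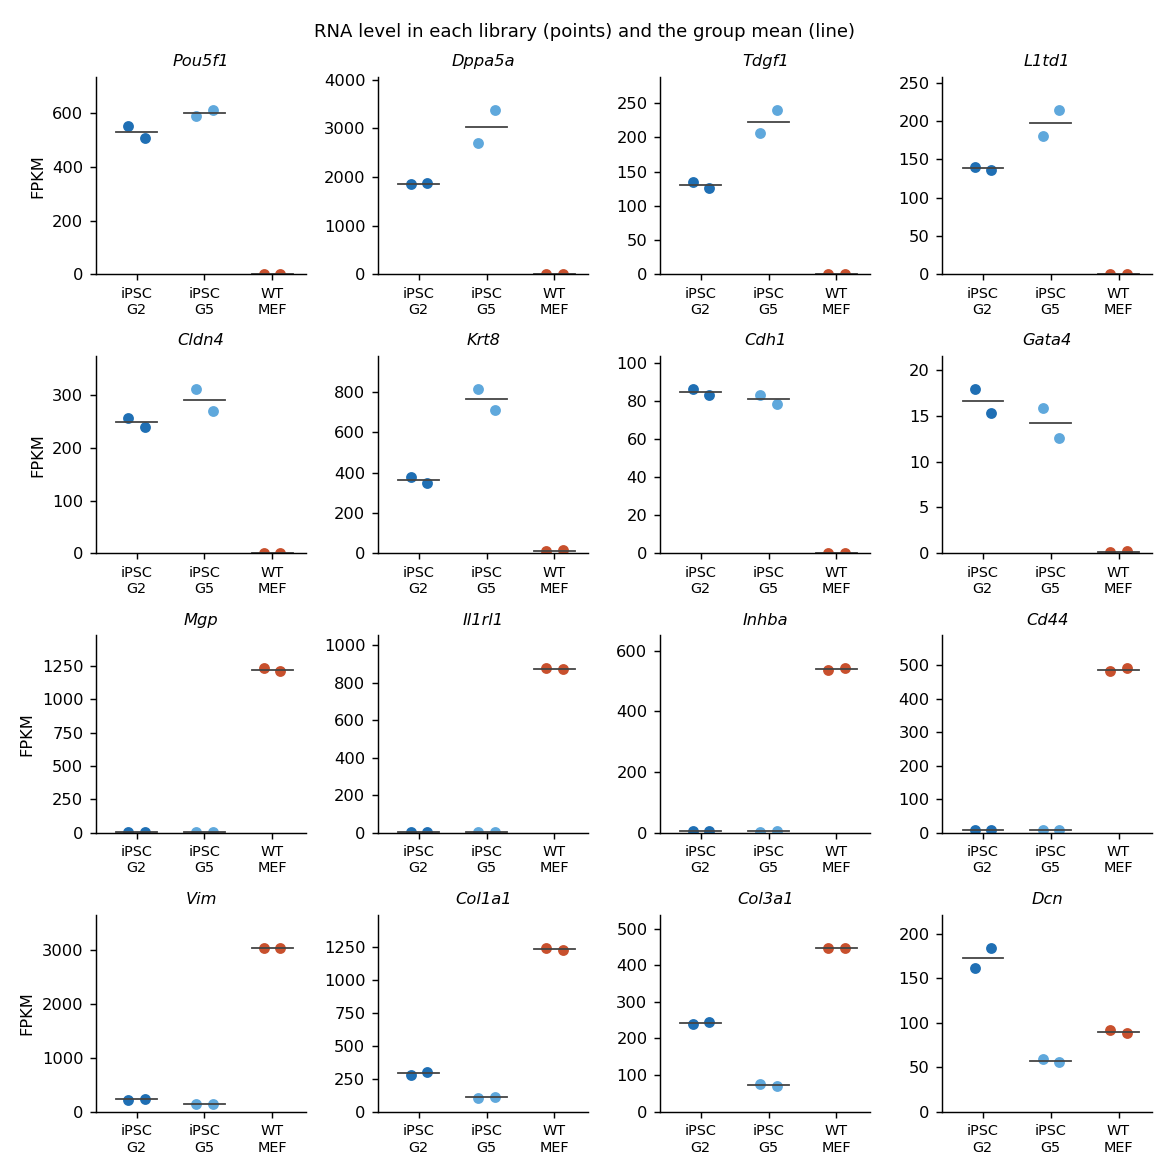
FPKM of 16 genes in each library, Nanog-null iPSC clone G2, clone G5 and WT MEF from left to right, with a point per library, a line at the group mean and every axis starting at 0. The first 8 panels are gained genes, and among the others Mgp, Il1rl1, Inhba and Cd44 are close to 0 in the clones. Vim stands a little above 0 in the clones, and Col1a1, Col3a1 and Dcn stand higher relative to WT MEF.

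Most ligands, receptors and surface markers of pluripotent cells were gained as well. Of 20 tested, 15 were gained and none was lost, with a median difference of 3.68 in mean log2(FPKM + 1). Dppa5a, an RNA-binding protein that is among the most abundant messages of naive ESC, ranked first among the gains, at 1855 and 1869 FPKM in clone G2, 2694 and 3376 FPKM in clone G5 and 0 FPKM in both WT MEF libraries. It was at least 2632-fold higher in the clones. Tdgf1 (Cripto), the co-receptor of Nodal, measured 135 and 126 FPKM in clone G2, 206 and 240.1 FPKM in clone G5 and 0 FPKM in both WT MEF libraries. Its level was higher in clone G5 than in clone G2 (log2 G2 over G5 -0.76, SE 0.167, edgeR adjusted p = 0.0139), a call that did not hold without any 1 of the 4 clone libraries, at log2 values of -0.857 to -0.645. The Nodal inhibitors Lefty1 and Lefty2 were gained with the same order of the clones, Lefty2 measuring 19.2 and 20.5 FPKM in clone G2, 39.0 and 43.5 FPKM in clone G5 and 0 FPKM in both WT MEF libraries. Fgf4, the autocrine ligand that drives ESC toward differentiation, was gained to 7.50 to 10.1 FPKM in the clones against 0 FPKM in both WT MEF libraries, where WT ESC averaged 81.0 ± 2.64 FPKM (SD, n = 2). Alpl, the tissue-nonspecific alkaline phosphatase stained in pluripotent colonies, measured 135 and 134 FPKM in clone G2, 139 and 144 FPKM in clone G5 and 0.78 and 0.515 FPKM in WT MEF. Of the 20 members, 16 were lower in both clones than in WT ESC.

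Members of this list that were not gained were already expressed by fibroblasts or stayed low. Bmp4 measured 9.67 to 10.5 FPKM in the clones against 23.1 and 24.8 FPKM in WT MEF, Lifr, the receptor of LIF, 3.95 to 4.45 FPKM in the clones against 4.91 and 5.19 FPKM in WT MEF, and Spp1 (osteopontin) 297 to 431 FPKM in the clones against 566 and 579 FPKM in WT MEF. Kit, the receptor of stem cell factor, measured 2.46 to 3.29 FPKM in the clones against 0.506 and 1.35 FPKM in WT MEF and Ceacam1 3.12 to 4.79 FPKM in the clones against 0.453 and 0.713 FPKM in WT MEF, both higher only in the fit of the 6 libraries. The order of the levels within the list ran from Dppa5a through Spp1 and Tdgf1 down to Fgfr4 and Fut9, which were gained but stayed under 1 FPKM in every clone library.

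Epithelial genes were gained with few exceptions. Of 21 tested members, 19 were gained and none was lost, with a median difference of 3.59 in mean log2(FPKM + 1). Cldn4, a tight junction claudin, measured 256 and 241 FPKM in clone G2, 312 and 271 FPKM in clone G5 and 0.336 and 0.18 FPKM in WT MEF, from 5 and 6 fragments in WT MEF. Cdh1 (E-cadherin), the adhesion protein that holds the colonies together, measured 86.3 and 83.2 FPKM in clone G2, 83.2 and 78.8 FPKM in clone G5 and 0.291 and 0.392 FPKM in WT MEF. Krt8 and Krt18, which pair to form the filaments of simple epithelia, were also gained. Krt8 measured 378 and 348 FPKM in clone G2, 813 and 711 FPKM in clone G5 and 13.2 and 14.3 FPKM in WT MEF, and Krt18 measured 351 and 340.1 FPKM in clone G2, 751 and 700.0 FPKM in clone G5 and 51.1 and 49.3 FPKM in WT MEF. Both keratins were higher in clone G5 than in clone G2 (Krt8 log2 G2 over G5 -1.06, SE 0.181, edgeR adjusted p = 0.00234; without G2 replicate 2 the Krt8 call was lost, at -0.989). WT ESC of the AC libraries held 6.52 ± 0.0955 FPKM of Krt8 and 6.85 ± 0.0135 FPKM of Krt18 (SD, n = 2), so the clones stood above the fibroblasts and above these ESC.

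Other members of the epithelial list lie in or near cell junctions or regulate epithelial genes. Epcam measured 37.9 to 49.3 FPKM in the clones against 0.236 and 0.446 FPKM in WT MEF, Cldn7 23.3 to 37.6 FPKM in the clones against 0 and 0.0421 FPKM in WT MEF and Grhl2, a transcription factor of epithelial genes, 5.20 to 6.19 FPKM in the clones against 0 and 0.0641 FPKM in WT MEF. Esrp1, which sets epithelial splicing, was gained at 1.36 to 1.88 FPKM in the clones against 0 and 0.064 FPKM in WT MEF. Krt19 (72.2 to 121 FPKM in the clones against 32.6 and 32.9 FPKM in WT MEF) and Rab25 (0.299 to 1.11 FPKM in the clones against 0.121 and 0.705 FPKM in WT MEF) were higher only in the fit with the code term. In the AC libraries, 14 of the 21 epithelial members were higher and 4, Cdh1, Ocln, St14 and Spint2, were lower in both clones than in WT ESC. Against JI WT ESC, which were not tested, the order differed for some of the 14. JI WT ESC averaged 75.8 FPKM of Cldn6 and 49.7 FPKM of Cldn7, above the clones at 11.6 and 29.2 FPKM. They averaged 84.3 FPKM of Cldn4 and 9.92 FPKM of Cldn3, below the clones at 270 and 27.9 FPKM.

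Germline genes, which are silenced by DNA methylation in somatic cells and partly open in ESC, were gained in both clones. Of 18 tested members, 16 were gained and none was lost, with a median difference of 2.2 in mean log2(FPKM + 1). Tex19.1, which restrains retrotransposons, measured 27.4 and 24.3 FPKM in clone G2, 50.8 and 51.0 FPKM in clone G5 and 0 and 0.0311 FPKM in WT MEF, and Stra8, a gene of meiotic entry, measured 15.0 and 14.9 FPKM in clone G2, 17.5 and 20.4 FPKM in clone G5 and 0 FPKM in both WT MEF libraries. Mael, of the piRNA pathway, measured 6.79 and 5.81 FPKM in clone G2, 11.7 and 12.03 FPKM in clone G5 and 0 FPKM in both WT MEF libraries. The summed level of the 18 genes was 105.0 and 101.3 FPKM in clone G2, 160.5 and 165.2 FPKM in clone G5 and 1.17 and 0.774 FPKM in WT MEF. In the AC libraries, 13 of the 18 were lower and 1 was higher in both clones than in WT ESC, whose sums were 296 and 281 FPKM. Taf7l, a germline TFIID subunit, was gained to 9.22 to 22.7 FPKM in the clones against 0 FPKM in both WT MEF libraries and was higher in clone G5 (log2 G2 over G5 -1.12, SE 0.172, edgeR adjusted p = 0.00119). Asz1 and Piwil2 were without a call and stayed under 1 FPKM in all 6 libraries.

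Of 11 genes for DNA methylation and retroviral silencing, 3 were gained and 1 was lost. The de novo methyltransferase Dnmt3b measured 41.0 and 41.0 FPKM in clone G2, 36.9 and 34.7 FPKM in clone G5 and 1.63 and 1.15 FPKM in WT MEF, and its catalytically inactive partner Dnmt3l measured 38.7 and 39.5 FPKM in clone G2, 23.6 and 22.4 FPKM in clone G5 and 1.48 and 1.13 FPKM in WT MEF. Tet1, which oxidises methylcytosine, was gained (16.4 to 19.6 FPKM in the clones against 0.68 and 0.827 FPKM in WT MEF), and Tet3 was lost (1.76 to 2.20 FPKM in the clones against 10.8 and 11.6 FPKM in WT MEF). Dnmt3b was also far above WT ESC, which averaged 3.38 ± 0.632 FPKM (SD, n = 2). Dnmt1, the maintenance enzyme, measured 50.7 to 55.8 FPKM in the clones against 39.7 and 40.8 FPKM in WT MEF, and Trim28, the co-repressor that silences retroviruses, 267 to 297 FPKM in the clones against 122 and 136 FPKM in WT MEF, neither with a call. The median difference of the list was 1.40 in mean log2(FPKM + 1).

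Some metabolic genes were gained. Of 13 genes for threonine and one-carbon metabolism, 4 were gained and 1 was lost, with a median difference of -0.411. The gained ones were Tdh, Gcat, Gldc and Amt, which break down threonine and glycine. Tdh has a pair of gene identifiers in the files, whose fragments could be split between them. The more abundant, listed as Tdh.1, measured 282 and 316 FPKM in clone G2, 246 and 283 FPKM in clone G5 and 0 FPKM in both WT MEF libraries, and the other measured 9.36 and 10.6 FPKM in clone G2, 7.59 and 11.1 FPKM in clone G5 and 0 FPKM in both WT MEF libraries. Phgdh, the enzyme that starts serine synthesis, was lost (27.5 and 25.9 FPKM in clone G2, 31.9 and 34.9 FPKM in clone G5 and 309 and 318 FPKM in WT MEF), and Psat1, the next enzyme of that route, measured 41.5 to 54.4 FPKM in the clones against 141 and 152 FPKM in WT MEF without a call.

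Several other large gains were pseudogenes or copies of housekeeping genes. Gm10154, Gm8730, Gm10139, Gm10116 and Gm9000 were among the 12 largest gains, and counting could split their fragments with near-identical genes, so they are uncertain. Gm10116 measured 2318 and 2247 FPKM in clone G2, 2719 and 3242 FPKM in clone G5 and 8.33 and 8.79 FPKM in WT MEF, but only 25.3 ± 0.709 FPKM in WT ESC (SD, n = 2) against 2413 ± 93.3 FPKM in Nanog null ESC (SD, n = 2). Fam25c completed the 12, at 158 and 138 FPKM in clone G2, 155 and 157 FPKM in clone G5 and 0 FPKM in both WT MEF libraries.

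Genes of the formative and primed epiblast, the stages that follow the naive state, were gained in part. Apart from Dnmt3b, those gained stayed under 10 FPKM. Of 15 tested members, 5 were gained (Otx2, Pou3f1, Dnmt3b, Foxd3 and Eomes) and 1, Sall2, was lost. Over all genes, 11.2% were gained and 5.37% were lost. The median difference of the list was 0.896 in mean log2(FPKM + 1). Otx2 reached 1.22 to 1.48 FPKM in the clones against 0 and 0.0716 FPKM in WT MEF, and Foxd3 6.497 to 7.69 FPKM in the clones against 0.15 and 0.223 FPKM in WT MEF. Foxd3 missed the large-change call in the fit with the code term without 1 of 5 libraries, Nanog-null iPSC G2 replicate 1, WT ESC replicates 1, 3 and 4 or WT MEF replicate 1, at mean log2 changes of 1.94 to 2.06. Fgf5, the classical marker of primed epiblast, measured 0.107 to 0.232 FPKM in the clones against 0.947 and 1.37 FPKM in WT MEF and was lower only in the 6 libraries. T, the Brachyury gene of mesoderm, measured 0.545 to 1.02 FPKM in the clones against 0 and 0.0588 FPKM in WT MEF and was higher only there.

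Genes of extraembryonic lineages were gained in part. Of 18 primitive endoderm members, 9 were gained and none was lost in both fits, with a median difference of 0.435 in mean log2(FPKM + 1). Gata4, a factor that founds this lineage, measured 17.9 and 15.3 FPKM in clone G2, 15.8 and 12.5 FPKM in clone G5 and 0.148 and 0.225 FPKM in WT MEF. Sox17 measured 12.9 and 9.43 FPKM in clone G2, 8.20 and 9.37 FPKM in clone G5 and 0 FPKM in both WT MEF libraries, and the basement membrane chain Lama1 44.3 and 39.1 FPKM in clone G2, 41.3 and 41.0 FPKM in clone G5 and 0.768 and 0.788 FPKM in WT MEF. Gata6 was gained over a fibroblast level (14.8 to 20.6 FPKM in the clones against 3.80 and 3.98 FPKM in WT MEF), and Apoe, a lipid carrier, was gained to the highest level of the list (1685 to 2594 FPKM in the clones against 287 and 295 FPKM in WT MEF). In the AC libraries, 15 of 17 tested members were higher in both clones than in WT ESC and none was lower. JI WT ESC were not tested, and members differed against them. Apoe averaged 2106 FPKM in the clones, 604 FPKM in AC WT ESC and 2404 FPKM in JI WT ESC. Col4a1 averaged 118 FPKM in the clones, 4.68 FPKM in AC WT ESC and 3.84 FPKM in JI WT ESC. Gata6 averaged 17.5 ± 2.98 FPKM in the clones (SD, n = 4), 18.5 ± 0.359 FPKM in Nanog null ESC (SD, n = 2) and 0.308 ± 0.0714 FPKM in WT ESC (SD, n = 2). The visceral endoderm genes Afp, Ttr, Apoa1 and Amn stayed under 1 FPKM in every clone library.

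Of 11 trophoblast members, 7 were gained and none was lost, with a median difference of 2.62. Ascl2 measured 10.2 and 12.6 FPKM in clone G2, 11.2 and 10.2 FPKM in clone G5 and 0.0767 and 0.171 FPKM in WT MEF, Plac1 14.1 and 15.3 FPKM in clone G2, 21.7 and 21.1 FPKM in clone G5 and 0.298 and 0.133 FPKM in WT MEF and Gata2 33.7 and 32.6 FPKM in clone G2, 29.5 and 25.7 FPKM in clone G5 and 3.85 and 4.32 FPKM in WT MEF. Cdx2 and Elf5, which define trophoblast stem cells, measured 2.60 to 4.48 FPKM in the clones against 0 FPKM in both WT MEF libraries for Cdx2 and 0.501 to 1.14 FPKM in the clones against 0 FPKM in both WT MEF libraries for Elf5, both higher in the 6 libraries only. Of the 11 members, 10 were higher in both clones than in WT ESC, and 1, Tfap2c, was lower.

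On the side of the losses, targets of TGF-beta and YAP signalling had the lowest median difference of the 26 lists. These secreted and cytoskeletal genes respond to matrix stiffness and growth factors and are strong in cultured fibroblasts. Of 11 tested, 7 were lost and none was gained, with a median difference of -3.76 in mean log2(FPKM + 1), and every clone library lay below every WT MEF library for all 11. Inhba, the activin subunit, measured 5.03 and 5.16 FPKM in clone G2, 3.38 and 4.04 FPKM in clone G5 and 536 and 542 FPKM in WT MEF. It was 122-fold lower in the clones, with log2 changes of -3.61 and -4.08 in G2 and G5 in the fit with the code term (SE 0.206 and 0.21, edgeR adjusted p = 5.77e-10 and 1.54e-10) and -6.65 and -7.13 in the 6 libraries. Ctgf, a YAP target, measured 77.4 and 79.1 FPKM in clone G2, 88.6 and 84.8 FPKM in clone G5 and 1200.4 and 1248 FPKM in WT MEF. Cyr61 (47.0 to 60.7 FPKM in the clones against 712 and 746 FPKM in WT MEF), Ankrd1 (1.05 to 1.52 FPKM in the clones against 81.7 and 84.7 FPKM in WT MEF) and Tgfbi (6.84 to 8.49 FPKM in the clones against 73.0 and 74.9 FPKM in WT MEF) were lower only in the fit of the 6 libraries, and Amotl2 (42.4 to 45.5 FPKM in the clones against 196 FPKM in both WT MEF libraries) only in that with the code term.

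Among the 12 largest losses were matrix, immune and growth factor genes. Mgp, the matrix inhibitor of calcification, measured 3.80 and 6.26 FPKM in clone G2, 4.20 and 3.67 FPKM in clone G5 and 1232 and 1209 FPKM in WT MEF, 272-fold lower in the clones. In JI WT ESC it averaged 102 ± 22.4 FPKM (SD, n = 2), and the log2 changes were -2.04 in G2 and -2.34 in G5 in the fit with the code term, against -7.99 and -8.25 in the 6 libraries. Without G2 replicate 1 or WT ESC replicate 2 it missed the large-change threshold in the fit with the term, at mean log2 changes of -2.09 and -2.05. Il1rl1, the receptor of interleukin 33 with a soluble form from fibroblasts, measured 3.83 and 3.37 FPKM in clone G2, 2.29 and 2.40 FPKM in clone G5 and 876 and 874 FPKM in WT MEF. Ptgs2, the inducible cyclooxygenase, measured 0.891 and 0.994 FPKM in clone G2, 1.08 and 0.972 FPKM in clone G5 and 268 and 281 FPKM in WT MEF. All 3 were under 1% of the fibroblast level in the clones. Ptn, a heparin-binding growth factor, was 255-fold lower (1.14 to 3.60 FPKM in the clones against 577 and 591 FPKM in WT MEF), Dlk1, a paternally expressed membrane protein of fetal mesenchyme, 210.3-fold (0.386 to 1.12 FPKM in the clones against 160.5 and 167 FPKM in WT MEF) and Serpinb2, an intracellular serpin, 578-fold (0.062 to 0.182 FPKM in the clones against 73.2 and 75.4 FPKM in WT MEF). Cd44, the hyaluronan receptor, was lost but remained detectable at 7.77 and 8.23 FPKM in clone G2, 8.21 and 7.11 FPKM in clone G5 and 483 and 490.1 FPKM in WT MEF.

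Matrix genes were mostly lower, by very different amounts. Of 26 matrix glycoproteins and modifiers, 8 were lost and none was gained, with a median difference of -2.28, and 24 had all clone libraries below both WT MEF libraries. Eln (elastin) measured 1.16 and 1.29 FPKM in clone G2, 0.685 and 0.353 FPKM in clone G5 and 102 and 106 FPKM in WT MEF, a 119-fold difference. Tnc (tenascin C) measured 30.9 and 31.5 FPKM in clone G2, 22.0 and 22.9 FPKM in clone G5 and 1290.3 and 1325 FPKM in WT MEF, and Thbs1 (thrombospondin) 139 and 148 FPKM in clone G2, 97.7 and 101 FPKM in clone G5 and 1977 and 2002 FPKM in WT MEF. At the other end stood genes that were not lost. Sparc, a collagen-binding protein, measured 801 and 789 FPKM in clone G2, 522 and 524 FPKM in clone G5 and 1570.1 and 1569.7 FPKM in WT MEF. Dcn (decorin) measured 161 and 185 FPKM in clone G2, 58.8 and 55.9 FPKM in clone G5 and 91.9 and 88.4 FPKM in WT MEF, above the fibroblast level in clone G2 and below it in clone G5. Mmp2, a gelatinase, measured 91.1 and 92.3 FPKM in clone G2, 38.6 and 37.6 FPKM in clone G5 and 93.7 and 91.8 FPKM in WT MEF. The list's summed level was 2863 and 2959 FPKM in clone G2, 1722 and 1746 FPKM in clone G5 and 12302 and 12388 FPKM in WT MEF.

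The collagens of the fibroblast matrix were lower in every clone library and yet remained abundant. Of 12 tested, 4 were lost in both fits (Col6a1, Col6a2, Col6a3 and Col11a1), 10 in the fit with the code term and 5 in the 6 libraries, and none was gained. Their median difference was -2.48. Col1a1, a chain of type I collagen, measured 278 and 303 FPKM in clone G2, 107 and 114 FPKM in clone G5 and 1248 and 1230.2 FPKM in WT MEF. In the 6 libraries its log2 change was -1.97 in G2 and -3.39 in G5 (SE 0.06 and 0.0636, edgeR adjusted p = 2.1e-26 and 6.22e-33), so G2 missed the threshold of 2 narrowly. Col3a1, of type III collagen, measured 239.9 and 246 FPKM in clone G2, 77.0 and 70.5 FPKM in clone G5 and 446 and 448 FPKM in WT MEF, and Col6a3, of the microfibrillar type VI, 18.1 and 18.97 FPKM in clone G2, 9.96 and 12.4 FPKM in clone G5 and 275 and 278 FPKM in WT MEF. Together the 12 collagens summed to 1232 and 1279 FPKM in clone G2, 494 FPKM in both libraries of clone G5 and 4331 and 4276 FPKM in WT MEF. All 12 were higher in both clones than in WT ESC, whose sums were 167 and 153 FPKM.

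Mesenchymal regulators and surface proteins were lower in level and lost in part. Of 16 mesenchymal transcription factors, 4 were lost (Zeb2, Runx2, Foxc2 and Meox2) and none was gained, with a median difference of -1.82. Zeb2, a repressor of Cdh1, measured 2.66 and 2.31 FPKM in clone G2, 2.17 and 1.92 FPKM in clone G5 and 32.2 and 31.8 FPKM in WT MEF. Its paralogue Zeb1 measured 4.57 to 5.56 FPKM in the clones against 16.3 and 19.6 FPKM in WT MEF, and Snai1, a repressor of the same gene, 10.96 to 14.5 FPKM in the clones against 42.2 and 42.7 FPKM in WT MEF. Both were lower only in the fit with the code term. The losses of Zeb2, Runx2 and Meox2 were not called in that fit without WT iPSC replicate 1, at mean log2 changes of -2.14, -2.19 and -2.28, nor that of Runx2 without WT ESC replicate 3 or WT iPSC replicate 3, nor that of Meox2 without Nanog-null iPSC G2 replicate 2. The calls of Zeb1 and Snai1 in that fit were lost without WT iPSC replicate 1, at -1.89 and -1.60. Twist2 (2.65 to 5.66 FPKM in the clones against 32.9 and 36.0 FPKM in WT MEF), Prrx1 (7.89 to 12.4 FPKM in the clones against 103 and 107 FPKM in WT MEF) and Prrx2 (2.97 to 4.62 FPKM in the clones against 28.9 and 35.2 FPKM in WT MEF) were lower only in the 6 libraries. Among 15 surface and cytoskeletal genes, 4 were lost (Cdh2, Cd44, Axl and Nes; Cdh2 not without WT iPSC replicate 1, at -2.18, and Axl not without WT ESC replicate 3, at -2.30) and 1, Nt5e, was gained (9.22 to 9.76 FPKM in the clones against 2.04 and 2.33 FPKM in WT MEF), with a median difference of -2.46. Vim (vimentin), the intermediate filament of mesenchymal cells, measured 227 and 239.6 FPKM in clone G2, 144 and 148 FPKM in clone G5 and 3046 and 3043 FPKM in WT MEF, lower in the 6 libraries only. Pdgfra, the PDGF receptor found on fibroblasts and on primitive endoderm, measured 8.24 to 13.1 FPKM in the clones against 25.4 and 25.7 FPKM in WT MEF without a call.

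Contractile genes show where the fits part. Of 12 tested, 1 (Vcl) was lost in both fits, 10 were lower in the 6 libraries and 2 were higher in the fit with the code term. Over all genes, 5.37% were lost in both fits. Tagln (transgelin) measured 52.3 and 47.3 FPKM in clone G2, 43.2 and 46.0 FPKM in clone G5 and 774 and 773 FPKM in WT MEF, so every clone library lay below WT MEF, and yet the fit with the term gave log2 changes of 2.42 in G2 and 2.24 in G5, against -3.88 and -4.06 in the 6 libraries. Its level was 629 ± 143 FPKM in JI WT ESC and 9.04 ± 1.61 FPKM in AC WT ESC (SD, n = 2 each). Myl9, a myosin light chain, behaved the same way, at 30.1 and 26.8 FPKM in clone G2, 22.6 and 19.8 FPKM in clone G5 and 146 and 152 FPKM in WT MEF. Its call in the fit with the code term was lost without WT ESC replicate 1, at a mean log2 change of 2.17. Acta2, smooth muscle actin, measured 103 and 97.1 FPKM in clone G2, 84.6 and 81.3 FPKM in clone G5 and 766 and 793 FPKM in WT MEF. In level, the median difference of the list was -2.67, and all 12 had the clones below WT MEF.

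**Figure D4:**
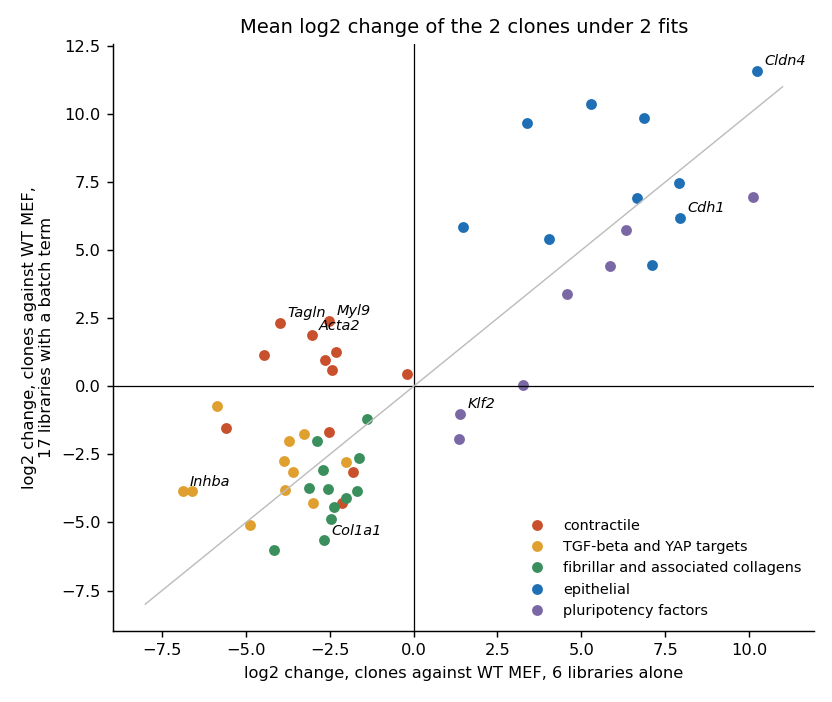
Mean log2 change of clones G2 and G5 against WT MEF in the fit of 17 libraries with a code term (vertical axis) and in the 6 libraries alone (horizontal axis), for members of 5 lists with at least 10 fragments in WT MEF; the grey line marks equal values. Contractile genes such as Tagln and Myl9 lie above 0 on the vertical axis and below 0 on the horizontal axis, while Inhba, Col1a1, Cldn4 and Cdh1 have the same sign in both.

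Immediate early and ERK response genes also differed between the fits. Of 18 tested, 4 were lost (Fosl1, Fosl2, Egr1 and Dusp5) and none was gained, while 12 were lower in the 6 libraries, and the median difference was -2.58. Egr1, an immediate early factor, measured 0.447 and 0.204 FPKM in clone G2, 0.362 and 0.223 FPKM in clone G5 and 36.8 and 37.7 FPKM in WT MEF, and Fosl1 (Fra-1), an AP-1 subunit of fibroblasts, 0.692 and 0.558 FPKM in clone G2, 0.402 and 0.394 FPKM in clone G5 and 24.5 and 24.8 FPKM in WT MEF. Without WT iPSC replicate 1 the calls of Fosl1, Fosl2 and Dusp5 were lost in the fit with the code term, at mean log2 changes of -3.47, -2.08 and -1.74. Dusp6, the ERK phosphatase, measured 2.45 to 2.91 FPKM in the clones against 44.9 and 47.4 FPKM in WT MEF, lower in the 6 libraries only. Etv5, an ERK-responsive factor of pluripotent cells, measured 61.6 to 73.6 FPKM in the clones against 8.85 and 9.28 FPKM in WT MEF and was higher in the 6 libraries only.

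Lists of other cell types that embryonic fibroblast cultures can hold were counted next. Of 14 macrophage markers, 8 were lost and none was gained, with a median difference of -3.14. Their summed level was 108.2 and 115.9 FPKM in clone G2, 115.4 and 124.0 FPKM in clone G5 and 747 and 751 FPKM in WT MEF. Lyz2 (lysozyme) measured 1.15 and 1.74 FPKM in clone G2, 0.857 and 0.501 FPKM in clone G5 and 353 and 357 FPKM in WT MEF, and the complement gene C1qa 0.0287 and 0 FPKM in clone G2, 0.0377 and 0 FPKM in clone G5 and 56.9 and 56.1 FPKM in WT MEF. C1qb was listed at 0 in 3 of the 4 clone libraries and Tyrobp, a signalling adaptor of myeloid cells, at 0 in both libraries of clone G2, whereas no marker was at 0 in WT MEF. Laptm5 (56.7 to 73.3 FPKM in the clones against 28.3 and 32.0 FPKM in WT MEF) and Cd68 (35.8 to 53.1 FPKM in the clones against 52.1 and 57.1 FPKM in WT MEF) hold most of the sum in the clones. The call of Tyrobp in the fit with the code term was lost without 1 of 5 libraries (Nanog-null iPSC G5 replicate 1 or 2, WT ESC replicate 1 or 2, or WT MEF replicate 2), at mean log2 changes of -5.44 to -4.92, and that of C1qa without WT iPSC replicate 1. The part of macrophages in the losses as a whole was not tested. Of 7 chondrogenic, adipogenic and muscle genes, 4 were lost and none was gained, among them Sox9 (0.24 to 0.291 FPKM in the clones against 10.7 and 12.6 FPKM in WT MEF) and Col2a1 (0.225 to 0.423 FPKM in the clones against 39.5 and 40.2 FPKM in WT MEF). Of 8 endothelial genes, Flt1 was lost (3.87 to 5.20 FPKM in the clones against 86.1 and 91.4 FPKM in WT MEF) and Cldn5 and Esam were gained at under 2 FPKM.

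To follow fibroblast RNA, 138 genes were defined on the JI libraries. Both WT MEF libraries had at least 20 FPKM. The lower WT MEF value was at least 16 times the higher JI WT ESC value plus 1. Just inside that ratio stood Tns3 (16.09) and Cyr61 (16.15), and just outside Fat1 (15.97) and Syde1 (15.73). Of the 138, 94 were lost in both fits, 119 in the fit with the code term and 110 in the 6 libraries. Since the rule asks for high WT MEF values, nothing is read from these counts. The median level was 8.10% of the WT MEF level in G2 and 5.53% in G5. Whether this RNA was retained or newly made was not tested. Of the 138 genes, 24 were under 1% of the WT MEF level over both clones, 30 lay from 1 to 5%, 68 from 5 to 25% and 16 above 25%.

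**Figure D5:**
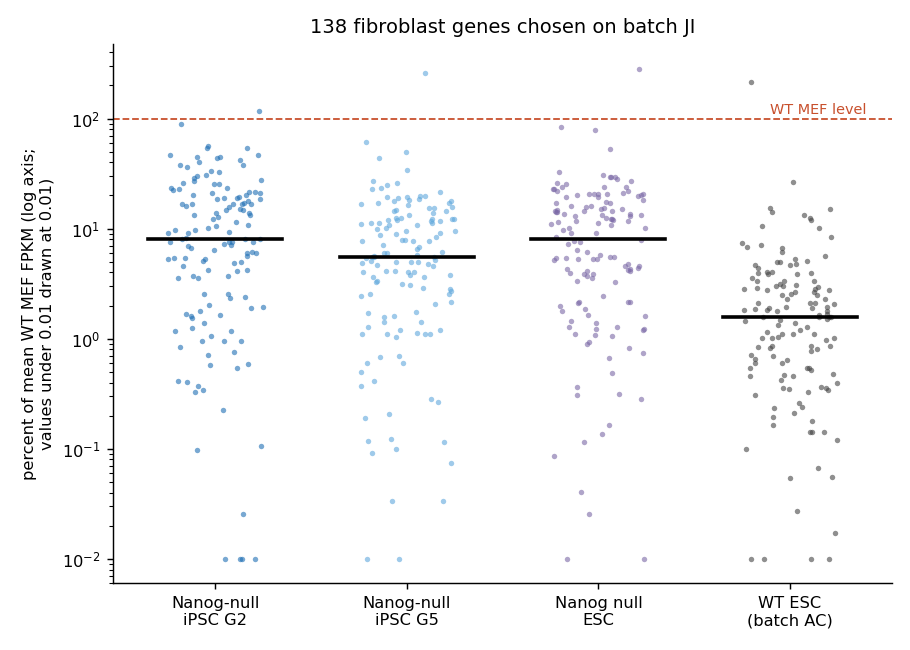
Level of each of the 138 fibroblast genes as percent of its WT MEF mean, on a log axis, in Nanog-null iPSC clone G2, clone G5, Nanog null ESC and AC WT ESC; each point is a gene, and the bar is the median. The medians are 8.10%, 5.53%, 8.14% and 1.57%, so the clones and Nanog null ESC stand above WT ESC.

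Median levels of the 138 genes were above that of WT ESC in both clones and in Nanog null ESC. In the AC libraries, 107 of 132 tested fibroblast genes were higher in both clones than in WT ESC and 3 were lower. The share higher was 81.1%, against 31.0% of all genes tested. The choice of genes used no AC library, but its rule asked for low levels in JI WT ESC. Nothing is therefore read from this share. Summed FPKM of the 138 genes came to 3782 and 3872 in clone G2, 2516 and 2397 in clone G5, 3378 and 3342 in Nanog null ESC, 942 and 948 in WT ESC and 28345 and 28761 in WT MEF. Nanog null ESC, which the labels also place on feeders, lay between the clones. As shares of the WT MEF sum these were 13.3 and 13.6% in clone G2, 8.81 and 8.40% in clone G5 and 11.8 and 11.7% in Nanog null ESC. The difference between the clones and Nanog null ESC was not tested, nor was the source of this RNA.

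Among the tested fibroblast genes, those highest relative to WT MEF were a chemokine, a gap junction gene and collagens. The only one of the 138 above the WT MEF level over both clones, AC127366.1, was not tested. Gjb2 (connexin 26) measured 78.2 and 83.4 FPKM in clone G2, 58.1 and 53.8 FPKM in clone G5 and 87.2 and 95.7 FPKM in WT MEF, 74.8% of the WT MEF level over both clones, and 0.362 ± 0.0707 FPKM in WT ESC (SD, n = 2). It was without a call against WT MEF in either fit, and against WT ESC its log2 change was 7.78 in G2 and 7.24 in G5 (edgeR adjusted p = 3.3e-13 and 6.68e-13). Cxcl5, which attracts neutrophils, measured 34.6 and 41.2 FPKM in clone G2, 11.2 and 10.9 FPKM in clone G5 and 31.3 and 33.7 FPKM in WT MEF, above WT MEF in both libraries of clone G2 and below it in clone G5. Col4a1 and Col4a2, the basement membrane collagens that primitive endoderm also makes, stood at 48.0% and 44.2% of the WT MEF level. Col4a1 averaged 118 ± 6.15 FPKM in the clones (SD, n = 4) and 204 ± 0.689 FPKM in Nanog null ESC (SD, n = 2). Lum (lumican) stood at 39.6%, Col3a1 35.4%, Cyp1b1, a monooxygenase, 34.5%, Col12a1 32.1%, Fbn2 (fibrillin 2) 30.02% and Thbs2 29.9%. In the fit with the code term the calls of Thbs2 and Col4a2 were lost without WT iPSC replicate 1, at mean log2 changes of -2.48 and -1.82, that of Col4a2 also without WT iPSC replicate 2, and that of Cyp1b1 without WT iPSC replicate 1 or 3, WT ESC replicate 3 or WT MEF replicate 2, at -2.89 to -2.72. Of the 10 genes highest in WT MEF, Lox, which crosslinks collagen, stood at 28.4%, Fn1 (fibronectin) 27.5%, Col1a2 20.2%, Thbs1 6.10% and Tnc 2.05%. Fn1 was the only one of the 10 that did not stand above WT ESC in both clones.

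The clones held unequal amounts of matrix RNA. In the fit with the code term, 638 genes were higher in G2 than in G5 (3.66% of 17446 tested) and 380 were higher in G5 (2.18%) at an adjusted p under 0.05 in edgeR. These counts depend on the libraries: without each of the 4 clone libraries in turn they were 205 to 277 and 45 to 82, and without the code term 5 and 1. Of the 137 fibroblast genes tested, 56 were higher in G2 and 4 in G5, and the median ratio of G2 to G5 was 1.46, with quartiles of 0.994 and 2.01. Of the 12 collagens 11 were higher in G2, as were 18 of 26 matrix genes, and none of either list was higher in G5. Col3a1 had a log2 G2 over G5 of 1.72 (SE 0.19, edgeR adjusted p = 5.73e-05). Of the contractile genes, 1 of 12 was higher in G2, and Acta2 averaged 99.8 ± 3.89 FPKM in G2 and 82.9 ± 2.33 FPKM in G5 (SD, n = 2 each).

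The largest differences between the clones were in single genes. Rlim, an X-linked ubiquitin ligase, measured 33.6 and 33.7 FPKM in clone G2, 1.51 and 1.504 FPKM in clone G5 and 27.0 and 25.3 FPKM in WT MEF, so that G5 stood far below both the fibroblasts and its sister clone. Plagl1, an imprinted zinc finger gene, showed the same order (33.8 and 33.8 FPKM in clone G2, 4.00 and 3.95 FPKM in clone G5 and 39.9 and 40.0 FPKM in WT MEF). Gtpbp1, a GTP-binding protein, was high in G5 (9.96 and 9.73 FPKM in clone G2, 88.9 and 79.8 FPKM in clone G5 and 11.9 and 11.04 FPKM in WT MEF), as was Gm17487 (0.0933 and 0.031 FPKM in clone G2, 25.7 and 23.2 FPKM in clone G5 and 0.114 and 0.0338 FPKM in WT MEF). Ptgds, prostaglandin D synthase, was gained more in G2 (11.98 and 11.2 FPKM in clone G2, 1.37 and 1.81 FPKM in clone G5 and 0 FPKM in both WT MEF libraries), and Tnmd (tenomodulin) was lower in G5, a call lost without G5 replicate 1 at a log2 of 2.49 (0.336 and 0.383 FPKM in clone G2, 0.0276 and 0.0604 FPKM in clone G5 and 36.1 and 39.5 FPKM in WT MEF).

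Imprinted genes had no common direction. Of 20 tested, 4 were gained (Snrpn, Phlda2, Impact and Slc38a4) and 2 were lost (Dlk1 and Grb10), with a median difference of -0.574. H19 measured 2202 and 1888 FPKM in clone G2, 2134 and 1854 FPKM in clone G5 and 1561 and 1574 FPKM in WT MEF, and its neighbour Igf2 159 and 156 FPKM in clone G2, 205 and 174 FPKM in clone G5 and 1050.2 and 1071 FPKM in WT MEF, lower in the 6 libraries only. Slc38a4, an amino acid transporter, measured 356 and 332 FPKM in clone G2, 589 and 567 FPKM in clone G5 and 46.0 and 51.5 FPKM in WT MEF. Meg3, the maternal RNA of the Dlk1 cluster, measured 51.7 to 67.5 FPKM in the clones against 284 and 286 FPKM in WT MEF.

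Of 17 cell cycle and senescence genes tested, 2 were gained (Ccnb1 and Cdkn2a) and none was lost, with a median difference of 0.254. These shares are near those of all genes, 11.2% gained and 5.37% lost. Cdkn2a, the Ink4a-Arf locus, a known barrier to reprogramming, measured 49.1 and 43.3 FPKM in clone G2, 38.2 and 40.6 FPKM in clone G5 and 6.18 and 7.46 FPKM in WT MEF, and Cdkn1a (p21) 102 to 160.0 FPKM in the clones against 152 and 160.0 FPKM in WT MEF. The D-type cyclins Ccnd1 (15.1 to 19.7 FPKM in the clones against 83.5 and 89.4 FPKM in WT MEF) and Ccnd2 (12.2 to 21.6 FPKM in the clones against 94.4 and 96.5 FPKM in WT MEF) were lower in the 6 libraries only. Of 14 interferon and antigen presentation genes 1, Ifitm1, was gained and none was lost, with a median difference of -0.951, and of 6 neural genes Neurod1 was gained and Tubb3 lost. Among 39 Hox genes tested, 2 were gained and 5 were lost, with a median difference of -0.541. Over all genes, 11.2% were gained and 5.37% were lost. Hoxd13 measured 0.759 to 1.44 FPKM in the clones against 6.49 and 6.54 FPKM in WT MEF. Hoxc13 measured 2.67 to 3.57 FPKM in the clones against 0.15 and 0.241 FPKM in WT MEF.

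Markers of line identity differed between the groups. Xist measured 12.7 and 12.4 FPKM in clone G2, 6.59 and 6.76 FPKM in clone G5 and 39.5 and 39.9 FPKM in WT MEF and Ddx3y 1.93 and 2.08 FPKM in clone G2, 1.11 and 1.16 FPKM in clone G5 and 21.5 and 21.6 FPKM in WT MEF, and 3 of 6 members of that list were lost. Hprt, the purine salvage enzyme, measured 9.90 and 12.6 FPKM in clone G2, 5.57 and 6.71 FPKM in clone G5 and 69.4 and 77.6 FPKM in WT MEF and 123 ± 4.92 FPKM in WT ESC (SD, n = 2).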

How the data were processed

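The authors deposited 1 table per library with an estimated count of fragments per gene, which need not be whole, and with FPKM, fragments scaled by length and library size. Per the submitters' processing notes, the tools were Cuffdiff 2.1.1, Bowtie2 2.0.5, TopHat2 2.0.7 and CASAVA, with no role stated. The notes name the builds mm10 and NCBIM37, and which of them the tables use is not given in the sources used here. Of 28670 genes, 19 were left out because the deposited status column marks them in some library. Deposited counts were rounded and tested with edgeR 4.0.16 in R 4.3.3 (TMM, filterByExpr, quasi-likelihood test, Benjamini-Hochberg over all genes), with limma 3.58.1 and DESeq2 1.42.0 as alternatives. Standard errors are the fitted log2 change divided by the root of the F statistic. Deposited FPKM gave levels. With no fragment in WT MEF, a bound uses 3 fragments as the floor, which covers counting error only.

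Members and the 26 lists were chosen with earlier results of these data known. Of the list members, 402 matched a gene and 2 did not. Requiring both fits was chosen after seeing the data. Named genes are the 12 largest gains and 12 largest losses called in both clones, the 10 highest remaining and the 10 highest WT MEF fibroblast genes, the 6 largest clone differences, and list members; 1 of these genes is not reported here. On simulated data of 17251 genes for the comparison with WT MEF, 44.8% of genes changed 4-fold and 100.0% of those changed 8-fold were called large, and 0 unchanged genes were. The simulation gave unchanged genes a common level in clones and WT MEF, with no code or strain difference. It ran the fit with the code term only. It therefore says nothing on false calls from code or strain.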

Additional observations from a re-analysis of the deposited data

Results flagged for a closer look

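The change against WT MEF differed between clones G2 and G5 by at least 2 on the log2 scale, with an edgeR adjusted p under 0.05 for the difference, in 7 of the named genes and list members. The log2 change of G2 minus that of G5 was -8.40 for Gm17487, 4.49 for Rlim, -3.09 for Gtpbp1, 3 for Plagl1, 2.93 for Tnmd, 2.84 for Ptgds and 2.36 for Hoxb8. The first 6 were named because they differ most. Hoxb8, a homeobox gene of the trunk, measured 0.735 and 0.229 FPKM in clone G2, 0.111 and 0.111 FPKM in clone G5 and 1.43 and 1.52 FPKM in WT MEF. Its difference was not called without G2 replicate 1, G5 replicate 1 or G5 replicate 2, at log2 values of 1.57, 2.51 and 2.23.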

How the results depend on the processing

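The count of large gains (3247) and of large losses (2069) stayed within 1.5 times under DESeq2, other normalization factors, no filter on low counts, a pseudocount of 0.1 and the 6 libraries alone. Outside that range were limma on log2(FPKM + 1), with 1507 gains and 1061 losses, a filter at a mean of 5 FPKM, with 1338 and 994, and, for losses, no code term, with 1249. A fold of at least 2 gave 5077 gains and 3862 losses, a fold of at least 8 gave 2029 and 1026, and no fold threshold gave 6285 and 5069. Held in both fits, the counts were 1798 and 860; at a fold of 2 these were 2908 and 2000, and at a fold of 8 the losses were 370. With 1 library left out, gains ranged from 2895 to 3263 and losses from 1744 to 2344; held in both fits, the ranges were 1637 to 1808 and 818 to 894. Genes higher in G2 ranged from 205 to 277 and those higher in G5 from 45 to 82, against 638 and 380, and without the code term they were 5 and 1; the cause was not tested. The number of fibroblast genes above WT ESC (107) ranged from 99 to 105. The replicate block gave 3098 gains, 2133 losses, 875 genes higher in G2 and 580 higher in G5. Replicate numbers did not pair the samples: deviations from the group means correlated at -0.0117 between G2 and G5, 0.0148 between G2 and WT MEF and -0.0124 between G5 and WT MEF.

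Among 189 named genes, 54 lost a large-change call under at least 1 alternative, most often without the code term (28), with limma on log2(FPKM + 1) (24), in the 6 libraries alone (21) and without WT iPSC replicate 1 (13), and 23 gained one. Meg3 and Ccnd2 gained a call of lower RNA in the fit with the term without any 1 of 6 libraries, and Cdx2 one of higher RNA without any 1 of 4. The mean log2 change of 25 named genes had the other sign under at least 1 alternative, 20 of them without the code term and 19 in the 6 libraries alone. For 8 of the 25, the value on one side or the other was called a large change; the cause was not tested. In the 6 libraries alone it was 2.15 for Kit, 2.39 for Ceacam1, -3.07 for Prrx2, -3.97 for Tagln, -2.52 for Myl9, -3.03 for Acta2 and 2.89 for Etv5. Without the code term it was -3.94 for Tagln and -2.49 for Myl9, and with limma on log2(FPKM + 1) it was -0.212 for Fut9. The median change of all genes was 0.249 in G2 and 0.255 in G5 with the code term, and 0.123 and 0.127 in the 6 libraries. Among the 6 libraries, depth limits WT MEF replicate 1 most, with 8.73 M fragments.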
